A study of Mus musculus with 6 samples.

Results

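Vegfa, Adm and Plat encode secreted factors that act on blood vessels and on clot breakdown, and their RNA was followed in RAW264.7 cells, a mouse macrophage cell line. The 3 genes were taken by name from a deposited table of 345 genes. RNA was sequenced from 3 untreated libraries (Control) and from 3 libraries of cells kept for 48 h in a 5-fold diluted extract of a gyroid scaffold printed from the alloy Zn-0.8Li (G scaffold). The labels give all 6 libraries the same cell line and no other treatment. The extract came from a zinc alloy that also holds lithium, so effects of the 2 metals cannot be told apart. The labels do not say whether the libraries of a group came from separate cultures, so the p-values measure the spread between these libraries, which may be technical.

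The table held only genes past the authors' own thresholds on these same libraries, and every change below was therefore chosen for being a change. The p-values and adjusted p-values below are for genes chosen in this way. They are thus not separate evidence of a change, and the adjusted ones do not measure a false discovery rate. The values were normalized counts, which are reads of a gene divided by 1 size factor per library. In all 6 libraries every value (100%) was a whole multiple, within 0.001, of what 1 read was worth, and the listed genes took 88836 to 156029 reads per library. These sums are not the sequencing depth. None of 12 macrophage markers (Adgre1, Cd68, Csf1r and others) was among the listed genes, so the label could not be checked against them here. Of the markers of other cell types, 1 of 7 endothelial markers was listed (Vwf), 1 of 8 fibroblast or osteoblast markers (Col1a1) and 0 of 6 epithelial markers. Vwf ranged from 14.1 to 31.5 normalized counts in Control and from 63.5 to 91.0 in the G scaffold group. Col1a1 had 0 reads in each Control library and 4.89 to 8.68 normalized counts in the G scaffold group. The part of these markers in the results was not tested.

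VEGF-A, the product of Vegfa, is the main growth factor for endothelial cells and drives the sprouting of new vessels through the receptor KDR. Adm encodes the precursor of adrenomedullin, a peptide that widens vessels and tightens the endothelial barrier through the receptor CALCRL with a RAMP partner. Plat encodes tissue-type plasminogen activator, a serine protease that turns plasminogen into plasmin, the enzyme that dissolves fibrin. Vegfa and Adm are both well-known targets of the hypoxia-inducible factors, and macrophages are a known source of VEGF-A in healing tissue, bone included.

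The stretches of 250 bases before the RefSeq start of Adm and of the upstream start of Vegfa are shown because both genes were called higher in the test described further on (build GRCm38.p6, C57BL/6J). RefSeq promoters were matched for 2 of the 3 genes, and Plat was the one without an entry. Capitals mark every match, on either strand, to a hypoxia response element core (ACGTG or GCGTG), to a metal response element (TGCACNC or TGCGCNC), which the zinc sensor MTF1 binds, or to a GC box (GGGCGG).
Vegfa, chr17:46032378-46032627, minus strand: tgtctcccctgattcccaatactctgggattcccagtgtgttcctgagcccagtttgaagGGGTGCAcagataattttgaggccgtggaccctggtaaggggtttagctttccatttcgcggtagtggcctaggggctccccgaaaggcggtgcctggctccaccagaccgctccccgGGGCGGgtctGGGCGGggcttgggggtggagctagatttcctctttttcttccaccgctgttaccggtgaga
Adm, chr7:110627407-110627656, plus strand: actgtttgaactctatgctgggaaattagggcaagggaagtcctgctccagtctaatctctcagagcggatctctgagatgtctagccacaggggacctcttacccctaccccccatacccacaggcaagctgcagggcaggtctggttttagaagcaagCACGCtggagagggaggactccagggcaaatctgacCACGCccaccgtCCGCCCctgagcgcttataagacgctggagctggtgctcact
The Vegfa stretch held GC boxes at -72 to -67 and at -62 to -57, counted back from the start, and 1 metal response element at -190 to -184 on the opposite strand. The Adm stretch held the hypoxia core GCGTG on the opposite strand at -90 to -86 and at -54 to -50, and a GC box at -42 to -37. Such letters are common. Of 32851 mouse RefSeq promoters of this length, 32.7% held a GC box, 28.2% held GCGTG, 16.6% held ACGTG and 10.4% held TGCACNC. An antioxidant response element core (TGACNNNGC, in 10.2% of promoters) lay in the Adm stretch at -58 to -50 and overlapped the second hypoxia core. Neither stretch held the letters of the AP-1 site (TGANTCA), the cyclic AMP response element (TGACGTCA) or its 5-base core TGACG, the C/EBP-ATF core (TGATGNAA), the TATA box (TATAAA) or the metal response element TGCGCNC, which 6.75%, 1.55%, 17.8%, 3.45%, 12.4% and 12.5% of all promoters held in this order. A further start of Vegfa inside the gene had both hypoxia cores, 1 GC box and 1 TGACG in its 250 bases. These matches describe letters in the windows and not binding.

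Vegfa was the gene of the 3 with the highest level in Control and the smallest change. Control replicates 1 to 3 held 459, 490.2 and 403 normalized counts of it, and G scaffold replicates 1 to 3 held 907, 961 and 914. The groups did not overlap, and the lowest G scaffold library lay well above the highest Control library. The spread was small on both sides, with a coefficient of variation of 9.78% in Control and 3.14% with the extract. The group means, 451 ± 44.1 and 928 ± 29.1 normalized counts (SD, n = 3 per group), had a ratio of 2.06. In the fit of limma over all 345 genes, on log2(normalized count + 1) with Benjamini-Hochberg adjustment, Vegfa rose by 1.04 on the log2 scale (SE 0.134, adjusted p = 0.000414), but its value was -0.44 with TMM factors and -0.39 with DESeq2 size factors computed over the listed genes. Genes were called at an adjusted p up to 0.05 together with a log2 fold change of 1 or more in either direction, and 82.6% of the listed genes were called higher (83.2% by edgeR and by DESeq2 on the reads, 39.1% with TMM factors, 39.4% with DESeq2 size factors and 55.4% with column totals). Vegfa lay at the edge of this threshold, at 0.97 without Control replicate 3 and at 0.40 with column totals over the listed genes. TMM and DESeq2 factors take most genes as unchanged, which a table of selected genes does not meet by construction, and they moved the median of all listed genes by -1.39 and -1.34. In bulk RNA, more cells that make a transcript and more transcript per cell cannot be told apart.

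Adm showed a larger change from a lower start. Control replicates 1 to 3 held 64.6, 40.0 and 64.0 normalized counts. Under the extract replicates 1 to 3 held 412, 330.0 and 353. Control replicate 2 was the low library and G scaffold replicate 1 the high one, and the groups were far from overlapping. The coefficient of variation was 24.9% in Control and 11.6% with the extract. The group means, 56.2 ± 14.0 and 365 ± 42.4 normalized counts (SD, n = 3 in each group), had a ratio of 6.50. The log2 fold change was 2.70 (SE 0.227, adjusted p = 8.07e-05, limma with Benjamini-Hochberg adjustment over all listed genes). Adm was called higher under each of the 16 alternatives run, with log2 fold changes from 1.23 with TMM factors to 2.82 without Control replicate 1. Among the 132 higher genes whose Control mean was 10 or more, Adm had rank 12 by log2 fold change and Vegfa rank 125.

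Plat was nearly silent in Control. It had 1, 1 and 3 reads in Control replicates 1, 2 and 3, against 148, 157 and 159 reads in the G scaffold replicates. In normalized counts the G scaffold libraries stood at 149, 151 and 156, with a coefficient of variation of 2.15%, the smallest of the 3 genes. The Control value of 1.65 ± 1.06 (SD, n = 3) rested on 5 reads in all, so the size of the rise is known only roughly. From the summed reads, the G scaffold level was 90.6 times the Control level, with a 95% interval of 38.5 to 280.3 (from the exact Clopper-Pearson interval of the G scaffold share of reads) that covers counting error only. The log2 fold change of 5.92 (SE 0.275, adjusted p = 9.37e-06 by limma) depended on the pseudocount and was 6.60 with pseudocount 0.1 and 3.80 with pseudocount 10. Plat was called higher under all 14 alternatives that could give it a value. Of the 345 listed genes, 99 were higher and had no Control library above 3 reads, and by G scaffold level Plat was number 3 among these 99, whose median was 10.2 normalized counts.

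**Figure D1:**
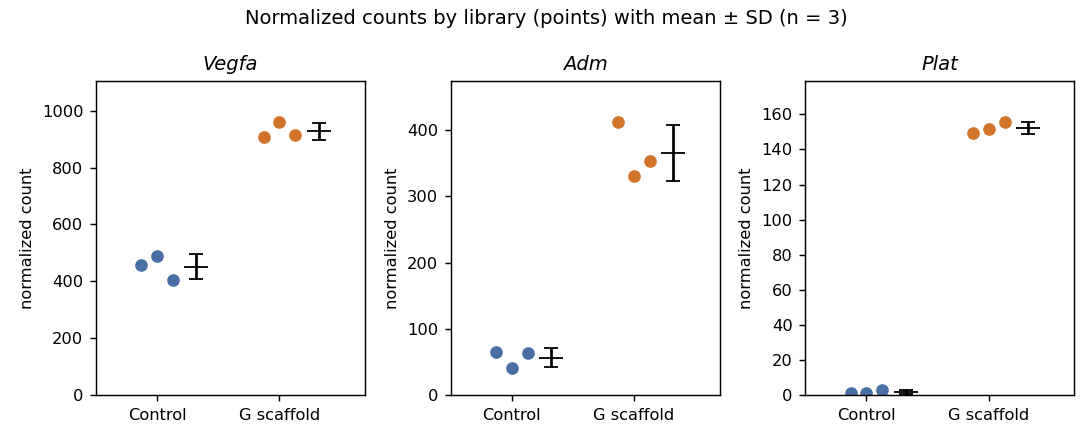
Normalized counts (y axis, linear from 0, a scale of its own for each gene) of Vegfa, Adm and Plat in the Control and G scaffold libraries; points are single libraries and the bar is the mean ± SD (n = 3). In each gene all 3 G scaffold libraries lie above all 3 Control libraries, and for Plat the Control points lie at 1 to 3 reads.

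With 3 libraries against 3, the exact two-sided permutation test of log2(normalized count + 1) gave p = 0.1 for each of the 3 genes, which is the smallest p this design allows. All 3 genes had groups that did not overlap in the higher direction, as did 82.9% of the listed genes (99.7% in either direction), a share the selection of the table sets.

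The genes differed in how far they rose, and a ratio of 2 genes inside 1 library does not depend on how libraries are scaled, apart from the pseudocount. The log2 ratio of Adm to Vegfa was -2.81, -3.58 and -2.64 in Control replicates 1, 2 and 3. It was -1.14, -1.54 and -1.37 in the G scaffold replicates. Every G scaffold library thus had more Adm for its Vegfa than any Control library, and the log2 fold change of Adm exceeded that of Vegfa by 1.66 (SE 0.313). The log2 fold change of Plat exceeded that of Vegfa by 4.88 (SE 0.388) and that of Adm by 3.22 (SE 0.311). For each of these 3 pairs the exact permutation test gave p = 0.1 (0.1 after Benjamini-Hochberg adjustment over the 3 pairs), again the smallest value 3 against 3 can give. Vegfa had rank 125 of the 132 higher genes with a Control mean of 10 or more, so most of these genes also rose further than Vegfa. For how many of them the ratio to Vegfa separated the groups was not computed. The 2 differences with Plat were 5.56 and 3.88 with pseudocount 0.1 and 2.77 and 1.28 with pseudocount 10. The difference between Adm and Vegfa lay between 1.38 and 1.85 when single libraries were left out.

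Per kilobase of gene model, Vegfa lay above Adm in Control, and the 2 genes could not be ordered with the extract. In Control the level was 105 ± 10.3 normalized counts per kilobase for Vegfa, 34.6 ± 8.61 for Adm and 0.637 ± 0.409 for Plat (SD, n = 3), and no library of one gene overlapped with those of the next. In the G scaffold group Adm stood at 224 ± 26.1 and Vegfa at 216 ± 6.79 normalized counts per kilobase, and these 2 did not differ beyond their spread. Plat followed at 58.8 ± 1.27, below every library of the other two. Vegfa was thus at 3.04 times the per-kilobase level of Adm in Control and at 0.964 times in the G scaffold group. In single libraries this ratio ran from 2.39 to 4.65 in Control and from 0.835 to 1.11 under the extract. The ratio of Vegfa to Plat per kilobase was 3.68 in the G scaffold group. It was 8.88 with exon lengths from GENCODE M21, because that annotation gives Plat 6241 bases of exon where the deposited model has 2586. For Vegfa and Adm the 2 annotations differed by at most 8 bases. Among all 345 genes, by level per kilobase of deposited length, Vegfa had rank 39 in Control and rank 40 with the extract. Adm moved from rank 85 to 39 and Plat from 249 to 95. Ranks with GENCODE lengths, in which Plat is longer, were not computed.

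**Figure D2:**
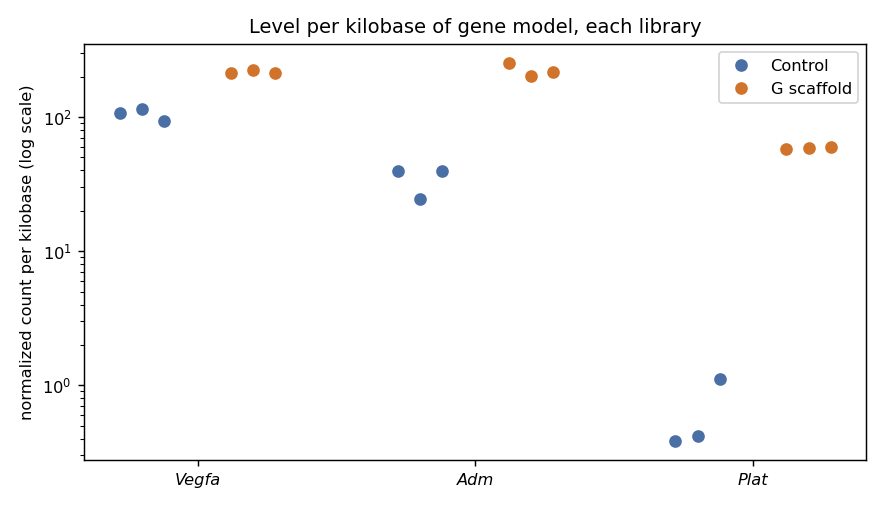
Normalized count per kilobase of the deposited gene model (y axis, log scale) of Vegfa, Adm and Plat; each point is 1 library, Control or G scaffold. The Adm points reach those of Vegfa in the G scaffold group (224 against 216 on average) and lie below them in Control (34.6 against 105).

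**Figure D3:**
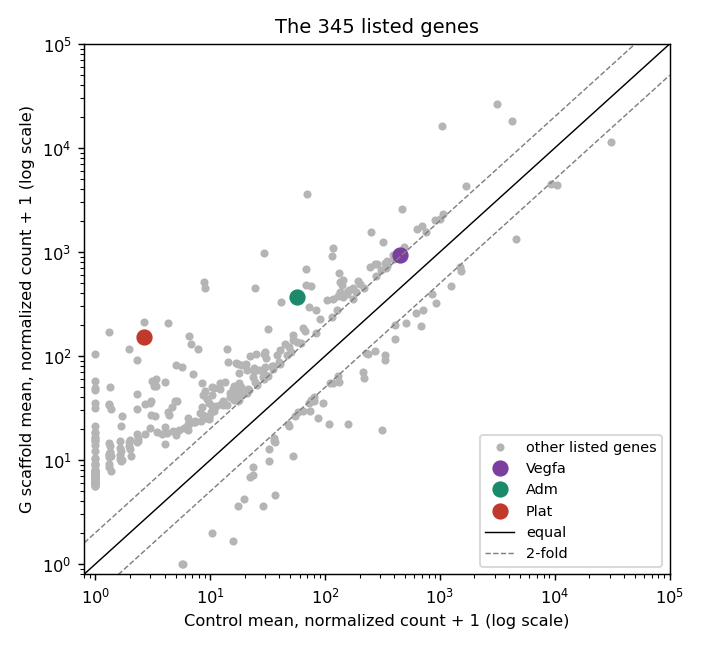
Mean normalized count + 1 in Control (x axis, log scale) against that in the G scaffold group (y axis, log scale) for the 345 listed genes, with Vegfa, Adm and Plat coloured; the solid line is equality and the dashed lines mark a 2-fold difference. Vegfa lies on the upper 2-fold line, and Plat lies far above it among the genes with few Control reads.

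The partners of the 3 factors were looked up from lists drawn from general knowledge. Of 10 genes for VEGF ligands and receptors only Vegfa was in the table, and of 11 genes of the adrenomedullin system only Adm. Their receptors and the other ligands were thus not among the listed genes, and their levels were not analysed here. Of 20 genes for plasminogen activation, its regulation and clotting 3 were in the table, namely Plat, Plaur and Procr. All 3 were called higher, Plaur not under TMM factors, DESeq2 factors or column totals over the listed genes. Procr, a receptor gene of the protein C pathway, belongs to the clotting part of the list. Of all listed genes 82.6% were called higher. The median log2 fold change of the 3 was 4.89, the value of Procr with its 16 Control reads. It was 1.87 over all listed genes and 2.33 over those called higher. Besides Plat, which was taken by name, the plasminogen part of the list held Plaur alone, at 1.42 and so below both of these medians.

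The 2 receptor genes of the list behaved differently from each other in level. Plaur, which encodes the receptor of the urokinase-type activator, had 238, 324 and 293 normalized counts in Control and 809, 749.6 and 723 with the extract. Its log2 fold change was 1.42 (SE 0.160, adjusted p = 0.000239 by limma), with values of -0.060 under TMM factors and -0.0084 under DESeq2 size factors and 0.78 under column totals over the listed genes. Procr, which encodes the endothelial protein C receptor, had 1, 9 and 6 reads in Control and rose to 155 ± 20.9 normalized counts with the extract (SD, n = 3).

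Of 45 other genes for angiogenic or vasoactive factors 10 were listed, and all 10 were called higher, against 82.6% of all listed genes. Not all products on this list are secreted, and Ptgs2 of the 10 encodes an enzyme that stays in the cell. The median log2 fold change of the 10 was 2.45, against 1.87 over all listed genes and 2.33 over the genes called higher. With the genes at 0 reads put at their bound it was 2.35, against 1.49 over all listed genes. Hbegf, which encodes a heparin-binding ligand of the EGF receptor, came nearest to Plat, with 1.99, 2.16 and 5.73 normalized counts in Control and 204, 193 and 223 with the extract. Spp1, which encodes osteopontin, had the highest level and rose from 4215 ± 209 normalized counts to 18168 ± 487 (SD, n = 3 per group). Thbs1, which encodes thrombospondin 1, an inhibitor of vessel growth, had 0 reads in each Control library and 15.1, 27.0 and 9.79 normalized counts with the extract. It was at least 5.71-fold higher, with 3 reads per Control library as the floor. Areg, an EGF-family ligand, was also at 0 reads in Control and at least 1.51-fold higher. Lif had 1 read in Control in all, and its ratio of 20.5 had an exact 95% counting interval of 3.30 to 847.7. The other 5 were the chemokine genes Cxcl2 and Cxcl10, the prostaglandin synthase gene Ptgs2, the protease gene Mmp9 and Timp1, which encodes an inhibitor of such proteases. Their log2 fold changes lay between 1.79 for Timp1 and 3.06 for Cxcl2. Under TMM factors over the listed genes all 10 stayed above 0, but Spp1, Cxcl10, Ptgs2 and Timp1 were no longer called (0.62, 0.88, 0.78 and 0.44). With pseudocount 10, Areg and Lif were no longer called (0.54 and 0.66).

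**Figure D4:**
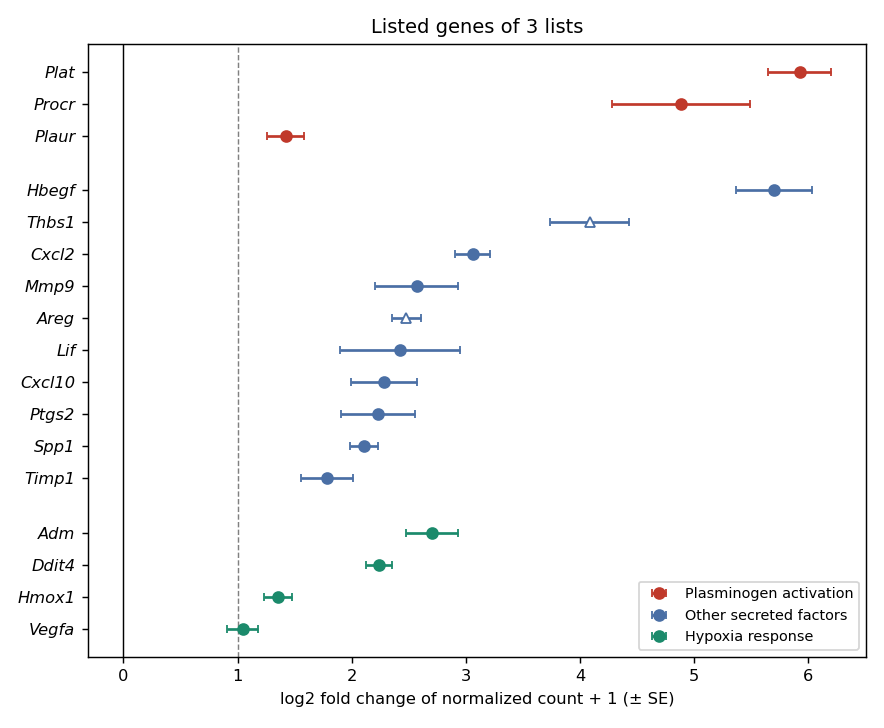
Log2 fold change of normalized count + 1, G scaffold vs Control (x axis, ± SE from limma). Shown are the listed genes of the plasminogen, secreted factor and hypoxia lists. Procr, a clotting gene, stands under the plasminogen label, and Ptgs2, whose enzyme is not secreted, under the secreted factor label. Open triangles are genes with 0 reads in every Control library and the dashed line marks 1. Plat (5.92) and Hbegf (5.70) lead, and Vegfa (1.04) lies nearest to the dashed line.

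Vegfa and Adm were also read beside other genes of the responses in which they are known. Of 38 hypoxia-response genes 4 were in the table (Vegfa, Adm, Ddit4 and Hmox1). All 4 were called higher in the scaling as deposited, as were 82.6% of all listed genes. Vegfa and Hmox1 turned negative under TMM and DESeq2 factors. Other genes of the hypoxia list, such as Slc2a1, Pgk1, Ldha and Pdk1, were not among the listed genes, and their levels were not analysed here. Ddit4, which encodes an inhibitor of mTORC1 signaling, rose from 131 ± 2.83 normalized counts to 622 ± 21.6 (SD, n = 3 per group). The log2 fold change of Hmox1, the heme oxygenase gene, was 1.36, and it was -0.13 under TMM factors and -0.076 under DESeq2 size factors. Of 23 genes of the integrated stress response, in which ATF4 can raise Vegfa, 6 were listed. All 6 were called higher in the scaling as deposited, against 82.6% of all listed genes. Their median log2 fold change was 1.40, against 1.87 over all listed genes. None of them was called under TMM factors, where 39.1% of all listed genes were called higher. Trib3, Sesn2, Ddit3 and Ppp1r15a of these had values between 1.04 and 1.43, and between -0.44 and -0.046 under TMM factors. Chac1 and Ddit4 had values of 1.60 and 2.24, and stayed above 0 there at 0.12 and 0.76. Vegfa, which is not on the stress response list, was close to the lowest values of that list, Trib3 at 1.04 and Sesn2 at 1.10. Trib3 was at 0.97 without G scaffold replicate 1.

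Zinc-response genes and immediate-early factors were also listed. Of 13 metallothionein and zinc transporter genes 3 were listed and called higher, against 82.6% of all listed genes. Their log2 fold changes were 3.97 for Mt2, 3.10 for Mt1 and 1.10 for Slc30a1, the zinc exporter gene. Slc30a1 was at -0.38 under TMM factors. Mt1 and Mt2 are close in sequence, so reads could have been split between them. Of 20 AP-1, EGR and related factor genes 6 were listed (Fos, Fosb, Fosl1, Egr1, Nr4a1 and Maff). All 6 were called higher, against 82.6% of all listed genes. Their median log2 fold change was 2.23, against 1.87 over all listed genes and 2.33 over those called higher. Nr4a1 was at -0.10 under TMM factors and -0.049 under DESeq2 size factors. Fos, Egr1 and Maff also lost their calls under TMM factors (0.50, 0.997 and 0.27), and Fosb and Fosl1 remained called there.

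The genes most like each of the 3 were found by the root-mean-square difference between log2(normalized count + 1) profiles over the 6 libraries, each centred on its own mean, among named genes whose Control mean was 10 or more. For Vegfa these were Akr1b8, an aldo-keto reductase gene, the stress gene Sesn2 and the diacylglycerol kinase gene Dgka, at differences of 0.0951, 0.0956 and 0.0994, the closest of 168 genes. All 3 turned negative with Vegfa under TMM factors, at -0.44, -0.38 and -0.43. For Adm the nearest were Baiap2 (0.225), which encodes an actin-binding scaffold, and the transcription factor genes Fosl1 (0.228) and Egr1 (0.256). For Plat the nearest of 169 genes were Arc (0.363), Gadd45g (0.578) and Plk2 (0.925). No gene with that much Control signal followed Plat as closely as others followed Vegfa. Plat itself had a Control mean below 10, and similarly faint genes such as Hbegf were outside the search, so closer profiles among them were not looked for. The 6 libraries fall into 2 groups, so this measure reflects mostly the size of the change.

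**Figure D5:**
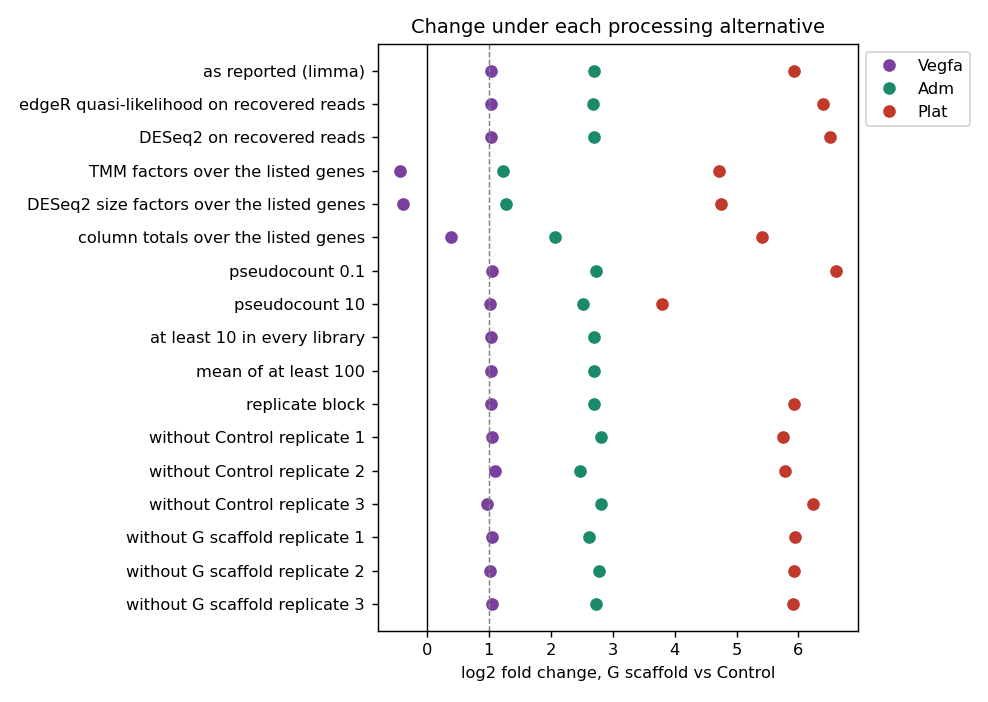
Log2 fold change, G scaffold vs Control (x axis), of Vegfa, Adm and Plat as reported and under each processing alternative (y axis); the solid line is 0 and the dashed line is the threshold of 1. Plat is the highest wherever it has a value (both filters on low values remove it) and Vegfa the lowest; Vegfa drops below 0 with TMM factors (-0.44) and DESeq2 size factors (-0.39) over the listed genes.

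In the deposited table Vegfa (MGP_SPRETEiJ_G0022567) lay on chromosome 17 (43499989 to 43518065, minus strand), Adm (MGP_SPRETEiJ_G0031439) on chromosome 7 (99842857 to 99845024, plus strand) and Plat (MGP_SPRETEiJ_G0032019) on chromosome 8 (19894127 to 19910586, plus strand). All 3 are protein-coding genes. The identifiers are those of SPRET/EiJ, a Mus spretus strain, while the labels name GRCm38, in which GENCODE M21 places Vegfa at chr17:46016993-46032369, Adm at chr7:110627661-110629820 and Plat at chr8:22757727-22782844. The effect of counting Mus musculus reads on that annotation was not tested.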

How the data were processed

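RNA-seq of 6 RAW264.7 libraries was analysed from 1 table. The authors deposited gene read counts divided by 1 size factor per library (normalized count, a signal that is not a raw count), with gene lengths. The study's methods name an online platform, and the submitters' processing notes list GRCm38 and mm10; the aligner is not given in the sources used here. The authors' fold changes, p-values and group means, also deposited, were not used. Groups and replicate numbers came from sample titles. Each value was divided by the smallest nonzero value in its library, which gave whole reads; size factors lay between 0.924 and 1.05. No 2 libraries of a group agreed within sampling noise (chi-square per degree of freedom 2.13 to 6.45).

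Genes were tested with limma 3.58.1 (R 4.3.3) on log2(value + 1), adjusted over 345 genes. Alternatives were edgeR 4.0.16 (quasi-likelihood) and DESeq2 1.42.0 on recovered reads, other scalings, pseudocounts of 0.1 and 10, filters, thresholds, a replicate block and leaving out each library; GENCODE lengths were added after the values were seen. The fits were tested on simulated data with fewer changed genes, rises and falls drawn equally often, and no mean as low as that of Plat in Control. That test therefore does not cover such low counts or a table in which most genes rise. Named genes were the 3 genes, the 3 nearest profiles of each and the listed members of the lists. The genes and lists were chosen with earlier results of these data known. An item of these lists is not reported here and was left out of their counts and medians. Python 3.11.15 with scipy 1.17.1 and matplotlib 3.10.9 was used.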

Additional observations from a re-analysis of the deposited data

How the results depend on the processing

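The table holds selected genes only, so no unchanged genes were at hand to compute the scaling anew, and the value of Vegfa depended on the scaling. With the deposited size factors its log2 fold change was 1.04 by limma, edgeR and DESeq2. With factors over the listed genes, Vegfa was at -0.44 (TMM), -0.39 (DESeq2 size factors) and 0.40 (totals). TMM and DESeq2 factors take most genes as unchanged, which this table does not meet. When single libraries were left out, Vegfa ran from 0.97 (without Control replicate 3) to 1.11. Adm (2.48 to 2.82) and Plat (5.75 to 6.23) stayed called when single libraries were left out and under all other alternatives run for them. Plat could not be fitted under either filter on low values (10 in each library, or a mean of 100), which remove it. The differences of Plat from Vegfa and from Adm were 5.56 and 3.88 with pseudocount 0.1, and 2.77 and 1.28 with pseudocount 10. With GENCODE lengths, chosen after seeing the data, the ratio of Vegfa to Plat per kilobase was 398.6 in Control (165.1 with deposited lengths) and 8.88 in the G scaffold group; the ratio to Adm moved by less than the spread.

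Of the listed genes 285 were called higher and 55 lower. The higher count was 135 with TMM factors, 136 with DESeq2 size factors, 115 with at least 10 in every library and 68 with a mean of at least 100. The lower count was 23 with a mean of at least 100 and 24 at a log2 fold change of 1.5. edgeR and DESeq2 on recovered reads each called 287 higher and 58 lower. The table had been selected on these same libraries, so these counts are not a separate check of the calls. Leaving out single libraries gave 276 to 283 higher and 50 to 53 lower.

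Of 36 other named genes, 10 changed sign with TMM factors and 9 of them with DESeq2 size factors. Their values were, with TMM factors and then DESeq2 size factors, -0.060 and -0.0084 for Plaur, -0.13 and -0.076 for Hmox1, -0.10 and -0.051 for Ddit3, -0.44 and -0.39 for Trib3, -0.38 and -0.33 for Sesn2, -0.38 and -0.33 for Slc30a1, -0.10 and -0.049 for Nr4a1, -0.44 and -0.39 for Akr1b8, -0.43 and -0.38 for Dgka, and -0.046 with TMM factors alone for Ppp1r15a.

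Same-numbered libraries did not deviate together (correlations of 0.00467, -0.0347 and -0.0713). These values showed no pairing by number, but with 3 libraries per group they cannot exclude it. With the replicate number as a block, 284 genes were called higher and 55 lower, and the adjusted p of Vegfa was 0.00361, of Adm 0.000576 and of Plat 0.000314. A balanced block leaves the log2 fold changes (1.04, 2.70 and 5.92) the same by construction.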
